A study of Mus musculus with 8 samples.

Results

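The 79 genes described here encode proteins of the cytosolic ribosome and were followed in retinas of rd10 mice, a strain whose rods and then cones degenerate because of a mutation in the rod phosphodiesterase gene Pde6b. Members were the protein-coding genes of the deposited table whose symbol is Rps, Rpl or Rplp plus a number, with an optional a, x or l at the end. They numbered 79 of the 54532 genes in the table, 30 of the small subunit (names in Rps) and 49 of the large subunit (names in Rpl, with the stalk proteins Rplp0, Rplp1 and Rplp2 among them). Ribosomal protein genes with other symbols, such as Rpsa and Rack1, fall outside this rule and are given as a separate list.

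The study's title sets small intracellular vesicles, in drug delivery and protection of the retina, against small extracellular ones, and the labels name 2 groups, neither labelled as extracellular vesicles. The sIVs group (small intracellular vesicles) has 4 libraries, numbered 2 to 5, and the PBS group, called the control by the labels, has 4, numbered 1 to 4. All 8 are rd10 retina, so the control retinas carry the same mutation. Vesicle source, dose, route, age and sampling time are not given in the sources used here. Nothing says that each library is a separate animal, so p-values measure only the spread between libraries. Fewer cells of a type and less RNA per cell cannot be told apart in such bulk samples.

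Library totals ran from 14640235 to 15948291 counts in PBS and from 15039385 to 16989737 in sIVs. Libraries sIVs 3 and 4 stood apart. The 14 rod markers listed summed to 9463 and 8959.6 CPM there (CPM, counts scaled to 1 common library size by the TMM method), against 40498 and 32548 CPM in sIVs 2 and 5 and 35671 to 42674 CPM in PBS. All 14 rod and all 8 bipolar cell markers listed were expressed well enough to be tested, and 0 of 6 lens markers were. The Y-linked gene Eif2s3y had 1705 counts in PBS 4 and 2083 in sIVs 5 and at most 1 elsewhere, so 1 library of each group held male RNA.

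A ribosome is built from a small subunit, which holds the messenger RNA and decodes it, and a large subunit, which joins amino acids. Each ribosomal protein is usually present once per subunit, and cells make the whole set in balance. Many of these messenger RNAs begin with a cytosine followed by a run of pyrimidines, the terminal oligopyrimidine motif, through which translation of the whole set is adjusted by mTOR signalling and the protein Larp1. Photoreceptors, glia and neurons all express the set, so the retinal level is a sum over cell types.

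The start sites of the members carried this signature more often than those of genes at large. RefSeq windows on build GRCm38.p6, each reaching from 250 bases before a start to 50 bases after it, were found for 59 of the 79 members, 71 windows in all. A cytosine exactly at the start with at least 4 further bases that are each C or T stood in 13 of the 71 (18.3%), against 2.51% of all 32851 windows. The 13 windows belong to Rpl14, Rpl15, Rpl28, Rpl35, Rpl35a, Rpl38, Rplp2, Rps6, Rps10, Rps15a, Rps18, Rps21 and Rps27. Searched on both strands anywhere in the window, CCGGAAG, a core bound by ETS-family factors, was in 35.2% of member windows and 8.86% of all windows. AAGATGGC, a core of the YY1 motif, was in 9.86% and 2.75%, GGGCGG in 57.7% and 35.7%, and the TATA box TATAAA in 8.45% and 13.6%. These are matches of letters, not measured binding, and the motifs were counted without regard to overlap. Windows of 40 bases before to 20 bases from the start show what a member with and without the run looks like, with capitals marking the pyrimidine run at the start.
Rps6, chr4:86857348-86857407, minus strand: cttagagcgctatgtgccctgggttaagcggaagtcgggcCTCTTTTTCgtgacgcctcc
Rplp2, chr7:141447611-141447670, plus strand: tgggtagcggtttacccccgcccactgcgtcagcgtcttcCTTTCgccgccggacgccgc
Rps27, chr3:90213629-90213688, minus strand: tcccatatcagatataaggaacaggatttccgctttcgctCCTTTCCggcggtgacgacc
Rps27l, chr9:66946046-66946105, plus strand: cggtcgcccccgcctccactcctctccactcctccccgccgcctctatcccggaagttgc
Rplp0, chr5:115559427-115559486, plus strand: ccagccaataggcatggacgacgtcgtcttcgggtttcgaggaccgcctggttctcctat
Rps6, Rplp2 and Rps27 have the run at their annotated start and Rps27l and Rplp0 do not, although annotated starts can miss the base at which most transcripts begin. The median log2 fold change (sIVs over PBS) was 0.23 over the 13 tested members with the run and 0.27 over the 43 with a window and no run.

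Ribosomal protein transcripts stood slightly higher in sIVs than in PBS retinas, in both subunits, and no member passed the test. Of the 79 members, 76 were expressed well enough to be tested, all 30 of the small subunit and 46 of the large. The median log2 fold change was 0.23 for the small and 0.24 for the large subunit, against -0.0051 over all 17725 genes tested. The interquartile range of the members lay between 0.16 and 0.32 in the small and between 0.14 and 0.33 in the large subunit. Positive fold changes were found for 30 of 30 small and 43 of 46 large subunit genes, where 49.0% of all genes were positive. The 3 exceptions were Rpl24, Rpl30 and Rpl7a. Genes of other kinds with a mean CPM in the members' interquartile range (99.8 to 206 CPM, 1584 genes) had a median of -0.05.

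**Figure D1:**
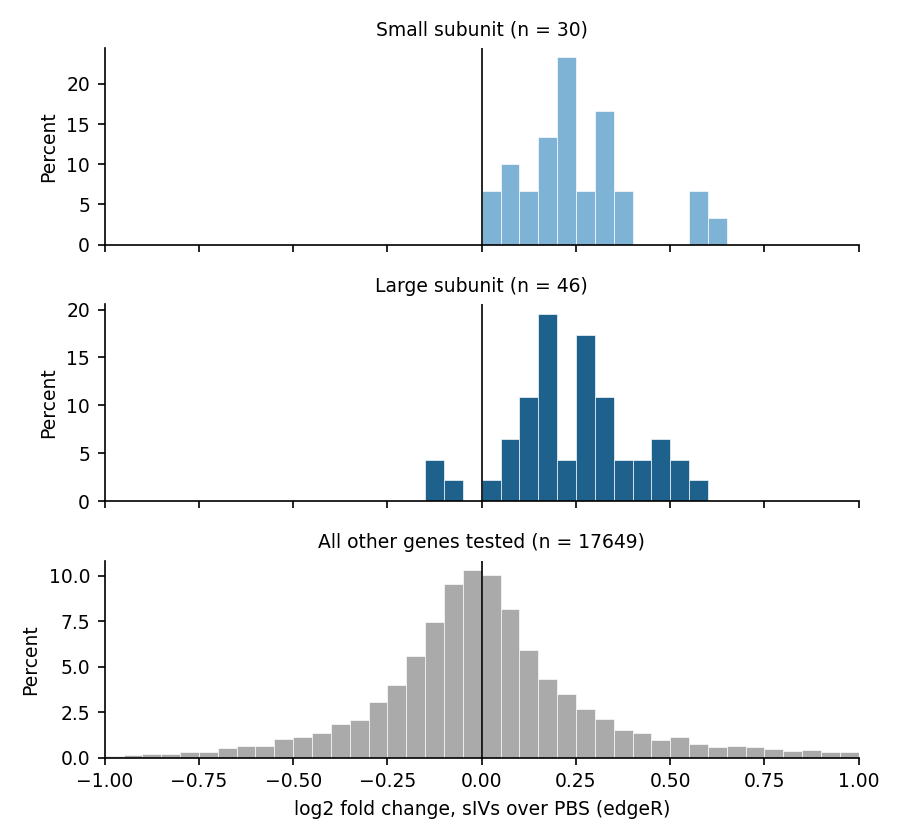
Share of genes (percent of each set, vertical axis) by edgeR log2 fold change of sIVs over PBS (bins of 0.05 from -1 to 1, genes beyond not drawn) for small subunit genes, large subunit genes and all other tested genes. Small subunit genes all lie right of 0, with a median of 0.23, and large subunit genes have a median of 0.24, while the other genes centre near 0.

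In edgeR's quasi-likelihood test with Benjamini-Hochberg adjustment over all genes, 0 of 76 members were higher and 0 lower at an adjusted p of 0.05, as for the whole table (0.0% of genes in either direction). Adjusted p over the members ran from 0.153 to 0.93. At an unadjusted p under 0.05, 38 of 76 members were higher, 14 of 30 in the small and 24 of 46 in the large subunit, beside 9.61% of all genes. None was lower, beside 5.63%. limma-voom gave 39 members higher at an unadjusted p under 0.05 (8.02% of all genes) and 0 after adjustment. DESeq2 called 10 members higher after adjustment, 3 small and 7 large (2.52% of all genes), and 0 lower (0.502%).

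The count depended on single libraries. Without sIVs 2, edgeR called 25 members higher after adjustment, 9 small and 16 large, while 4.83% of all genes were called higher, and 49 members were higher at an unadjusted p under 0.05 (13.7%). At that unadjusted level the count of 38 became 20 without PBS 2 (7.5% of all genes), 24 without PBS 3 (7.2%) and 22 without sIVs 4 (6.29%). Without both sIVs 3 and 4 it was 23 (6.73%), with 0 after adjustment (0.011%), and the median log2 fold change was 0.19 for the small and 0.15 for the large subunit. Named members whose log2 fold change then shrank by more than 1.5 times were Rps2 (to 0.31), Rpl10 (0.17), Rpl11 (0.14), Rpl12 (0.30), Rpl32 (0.19), Rpl39 (0.17), Rplp0 (0.23) and Rplp1 (0.23), beside Rpl24, whose sign turned.

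By library, the difference lay in sIVs 3, 4 and 5, and sIVs 2 was close to PBS. The median log2 ratio of the members to the PBS mean was 0.03 in sIVs 2, 0.22 in sIVs 3, 0.34 in sIVs 4 and 0.28 in sIVs 5. In PBS 1 to 4 it was 0.08, -0.14, -0.0029 and 0.05. Thus sIVs 2 lay inside the PBS range and the other 3 above it. Relative to the highest PBS library, 16 of 76 members were higher in sIVs 2, against 21.7% of all genes, a share near the background. The same count was 50 in sIVs 3 (31.8% of all genes), 62 in sIVs 4 (32.4%) and 65 in sIVs 5 (29.8%).

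**Figure D2:**
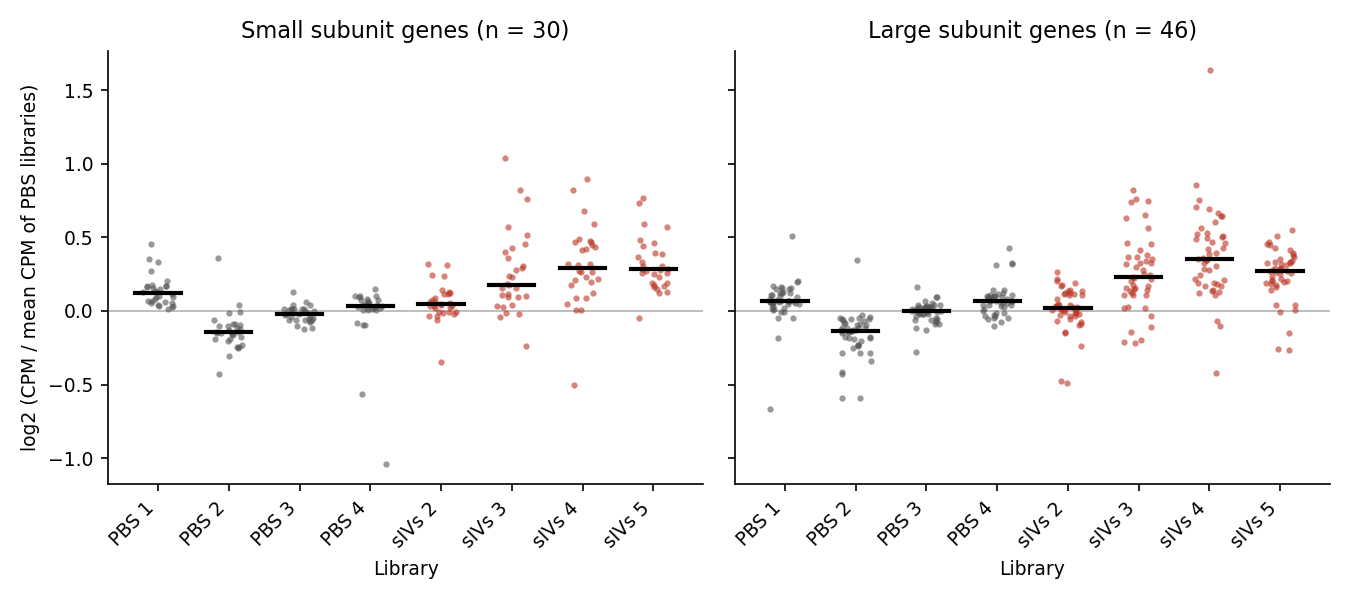
Each point is 1 tested member in 1 library, as the log2 ratio of its CPM to its mean in the 4 PBS libraries (vertical axis), with small subunit genes on the left and large on the right, grey for PBS and red for sIVs. Black bars are medians, which for sIVs 3, 4 and 5 lie above those of every PBS library in both subunits and for sIVs 2 among them.

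All 4 sIVs libraries lay above all 4 PBS libraries for 12 of 76 members, 2 small (Rps27l among them) and 10 large (Rpl4, Rpl7, Rpl12, Rpl13, Rpl14, Rpl19, Rpl29, Rpl34, Rpl36a and Rplp1), beside 4.42% of all genes, and below them for 0, beside 3.36%. Without sIVs 2 the groups did not overlap for 45 members (sIVs higher; 11.3% of all genes), and without PBS 1 for 26 (6.17%). With sIVs 3 and 4 left out, sIVs 2 and 5 both lay above every PBS library for 15 members (11.3% of all genes).

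The share of all counts that fell on the members was 1.06% ± 0.0686 in PBS and 1.32% ± 0.164 in sIVs (SD, n = 4 each). Small subunit genes took 0.457, 0.385, 0.414 and 0.415% of counts in PBS 1 to 4 and 0.433, 0.540, 0.557 and 0.517% in sIVs 2 to 5. Large subunit genes took 0.677, 0.583, 0.644 and 0.657% and 0.662, 0.860, 0.915 and 0.787% in the same order. In both subunits sIVs 3, 4 and 5 exceeded every PBS library and sIVs 2 did not. The ratio of the sIVs to the PBS mean was 1.23 for the small and 1.26 for the large subunit. These shares move with whatever else fills a library: after TMM scaling, which sets most genes level between libraries, the same sums had ratios of 1.16 and 1.19.

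**Figure D3:**
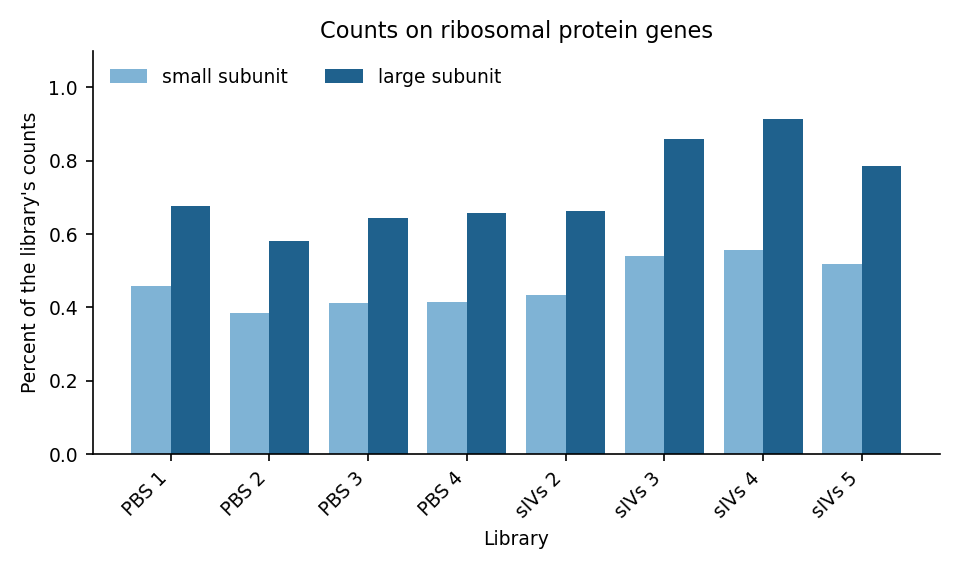
Percent of each library's counts (vertical axis, from 0) on small subunit and on large subunit genes. Libraries sIVs 3, 4 and 5 are above every PBS library in both, from 0.517 to 0.557% for the small and 0.787 to 0.915% for the large subunit.

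The balance of the subunits differed little between groups. The large subunit had 1.53 ± 0.0459 times the counts of the small in PBS and 1.57 ± 0.0567 times in sIVs (SD, n = 4 each), with overlapping ranges of 1.48 to 1.58 and 1.52 to 1.64. The deposited FPKM scale gives reads per deposited gene length and depth. On it the ratio of the summed levels was 1.57 ± 0.0512 in PBS and 1.55, 1.72, 1.78 and 1.58 in sIVs 2 to 5. Libraries sIVs 3 and 4 had the highest of these 8 ratios, and sIVs 2 and 5 lay in the PBS range of 1.51 to 1.62.

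Levels differed far more between members than between groups. Rplp1, an acidic stalk protein gene, had the highest FPKM, with 566 ± 46.9 in PBS and 786 ± 145 in sIVs (SD, n = 4 each). Rps15 followed at 334 and 341 FPKM, then Rpl36 at 242 and 304 FPKM. Rps29, the second small subunit gene by FPKM, stood at 199 and 231. These ranks depend on the deposited gene lengths, 499 bases for Rplp1, 630 for Rps15, 383 for Rpl36 and 693 for Rps29. For Rps27 that length was 1043 bases, against 345 in its main transcript. In CPM, which does not use length, Rpl4 (419) and Rpl3 (377) exceeded Rplp1 (284) in the PBS mean. Of the tested members, Rps10 and Rpl24 had the lowest levels, at 2.17 and 1.94 FPKM over all libraries. With the rows of annotated copies added, 88.6% of the Rps10 counts and 58.8% of the Rpl24 counts lay in the copies, and the PBS mean became 39.0 CPM in place of 4.63 for Rps10 and 4.84 CPM in place of 2.10 for Rpl24. Of the 100-base runs of their main transcripts, 33.9% and 19.9% were found in no other annotated transcript, beside a median of 65.8% over the members. Over the 76 tested members, mean FPKM and log2 fold change had a Spearman correlation of -0.0014, a description across genes that share the same libraries.

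In the small subunit, Rps27l had the smallest p of all members. It encodes a paralog of Rps27 known as a target of p53 (ENSMUSG00000036781, GRCm38 chromosome 9, 66946086 to 66949516). Rps27l stood at 13.6, 11.4, 12.1 and 11.4 CPM in PBS 1 to 4 and 15.2, 21.6, 19.6 and 18.3 CPM in sIVs 2 to 5. All 4 sIVs libraries lay above the highest PBS library, with a log2 fold change of 0.62 ± 0.13 (SE; adjusted p in edgeR = 0.153). Its coding sequence differs from that of Rps27 at 61 of 255 bases, and the longest run identical in both transcripts is 11 bases. The first 60 coding bases in the GENCODE M21 transcripts show this, with capitals at the 18 differing bases.
Rps27: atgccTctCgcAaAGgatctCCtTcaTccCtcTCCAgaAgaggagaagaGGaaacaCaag
Rps27l: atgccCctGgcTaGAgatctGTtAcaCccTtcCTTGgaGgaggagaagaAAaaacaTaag

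Rps27 itself, a zinc-finger protein of the small subunit, stood at 106, 107, 79.4 and 40.3 CPM in PBS 1 to 4 and 103, 92.5, 94.1 and 138 CPM in sIVs 2 to 5 (log2 fold change 0.36 ± 0.27 SE; adjusted p in edgeR = 0.55). The groups overlapped and PBS 4 was the low library, without which the log2 fold change was 0.13, while without sIVs 5 it was 0.21. Its transcript is nearly identical to that of Rps27rt, a retrogene on chromosome 9: 341 of its 345 bases form 1 run that both share. The deposited counts of Rps27 were 1653, 1663, 1144 and 567 in PBS 1 to 4 and 1540.0, 1489, 1704 and 2315 in sIVs 2 to 5. Those of Rps27rt were 768, 314, 750.0 and 1430.0 and 900.0, 776, 951 and 524. Where Rps27 was low, in PBS 4, Rps27rt was high, and in sIVs 5 the reverse held. Summed, the 2 rows stood at 139 ± 12.9 CPM over the PBS libraries and 155 ± 13.5 CPM over the sIVs libraries (SD, n = 4 each), with a coefficient of variation in PBS of 9.28% for the sum and 37.6% for Rps27 alone. How the authors assigned reads shared by both is not given in the sources used here.

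Rps2, which helps form the channel where messenger RNA enters, was at 192, 168, 177 and 180.4 CPM in PBS 1 to 4 and 177, 304, 334 and 267 CPM in sIVs 2 to 5. Its sIVs libraries 3, 4 and 5 were above PBS and sIVs 2 was in the middle of it, so the mean difference of 0.59 ± 0.17 on the log2 scale (SE; adjusted p in edgeR = 0.185) came with an SD of 67.9 CPM in sIVs against 10.2 CPM in PBS. Rps19, needed for maturation of the small subunit and mutated in Diamond-Blackfan anaemia, stood at 111, 88.1, 94.5 and 100.4 CPM in PBS 1 to 4 and 105, 126, 134 and 134 CPM in sIVs 2 to 5. Again sIVs 2 overlapped PBS and the other 3 did not (log2 fold change 0.34 ± 0.10 SE; adjusted p in edgeR = 0.196).

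Other small subunit genes named for their role had smaller fold changes. Rps6, which S6 kinase phosphorylates downstream of mTOR, stood at 252, 245, 235 and 255 CPM in PBS 1 to 4 and 250.3, 253, 263 and 269 CPM in sIVs 2 to 5. Its groups overlapped, with a log2 fold change of 0.07 ± 0.06 (SE; adjusted p in edgeR = 0.65). Rps3, at the messenger RNA entry channel, was at 302, 256, 275 and 298 CPM in PBS 1 to 4 and 295, 306, 332 and 323 CPM in sIVs 2 to 5. Of the 4 sIVs libraries, 3 exceeded the highest PBS library (log2 fold change 0.15 ± 0.08 SE; adjusted p in edgeR = 0.399). Rps29, a small zinc-binding protein, stood at 174, 103, 137 and 139 CPM in PBS 1 to 4 and 164, 154, 166 and 157 CPM in sIVs 2 to 5, so that every sIVs library lay inside the wide PBS range. Its log2 fold change of 0.21 ± 0.13 (SE) was 0.34 without PBS 1 and 0.095 without PBS 2. The lowest fold changes of the small subunit belonged to Rps14, needed to mature the small subunit RNA, and Rps15, whose tail reaches towards the decoding centre. Rps14 was at 243, 208, 238 and 237 CPM in PBS 1 to 4 and 230.3, 225, 239 and 261 CPM in sIVs 2 to 5 and Rps15 at 226, 180.2, 217 and 222 CPM in PBS 1 to 4 and 207, 208, 212 and 234 CPM in sIVs 2 to 5. Only sIVs 5 exceeded the PBS range for either. Their log2 fold changes of 0.05 and 0.03 turned slightly negative without PBS 2 or without sIVs 5.

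In the large subunit, the stalk that recruits translation factors held some of the higher values. Rplp0, the protein that anchors the stalk (ENSMUSG00000067274, GRCm38 chromosome 5, 115559467 to 115563727), stood at 249.9, 228, 242 and 233 CPM in PBS 1 to 4 and 235, 421, 430.3 and 325 CPM in sIVs 2 to 5. Libraries sIVs 3 and 4 were the highest, sIVs 5 was between them and PBS, and sIVs 2 was inside the PBS range (log2 fold change 0.57 ± 0.17 SE; adjusted p in edgeR = 0.196). Rplp1 and Rplp2 are the acidic proteins that bind Rplp0 in pairs. Rplp1 was at 296, 249.8, 285 and 304 CPM in PBS 1 to 4 and 308, 446, 463 and 357 CPM in sIVs 2 to 5, without overlap (log2 fold change 0.47 ± 0.13 SE; adjusted p in edgeR = 0.185). Rplp2 was at 122, 98.8, 116 and 128 CPM in PBS 1 to 4 and 115, 145, 163 and 159 CPM in sIVs 2 to 5, with sIVs 2 inside the PBS range (0.33 ± 0.12 SE; adjusted p in edgeR = 0.265). With its annotated copy added, 26.4% of the Rplp2 counts lay in the copy. The sums stood at 174, 152, 171 and 206 CPM in PBS 1 to 4. In sIVs 2 to 5 they were 174, 173, 185 and 200.2 CPM, all inside the PBS range. Rpl12 sits at the base of the stalk (ENSMUSG00000038900, GRCm38 chromosome 2, 32961559 to 32965345). It stood at 104, 98.7, 95.9 and 103 CPM in PBS 1 to 4 and 109, 168, 163 and 139 CPM in sIVs 2 to 5, without overlap between groups (log2 fold change 0.53 ± 0.12 SE; adjusted p in edgeR = 0.167).

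**Figure D4:**
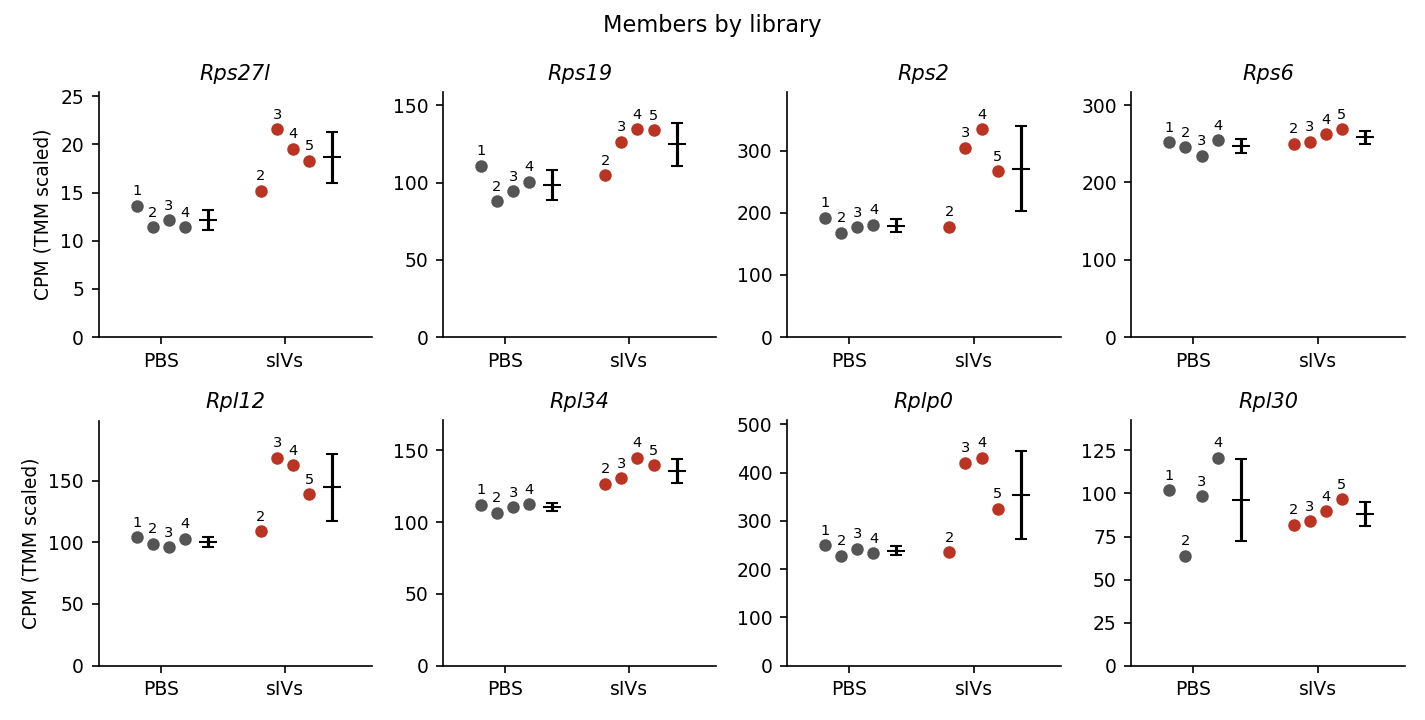
CPM (vertical axes, from 0) of 8 members in each library, with the library number above each point and, beside each group, the mean with its SD (n = 4). Rps27l, Rpl12 and Rpl34 have no overlap between groups, in Rps2, Rps19 and Rplp0 sIVs 2 lies within PBS, and in Rps6 and Rpl30 the groups overlap.

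Rpl34 had the smallest p of the large subunit (ENSMUSG00000062006, GRCm38 chromosome 3, 130726831 to 130730398). It was at 112, 107, 110.2 and 112 CPM in PBS 1 to 4 and 127, 130.3, 145 and 139.7 CPM in sIVs 2 to 5. All sIVs libraries, sIVs 2 among them, exceeded the highest PBS library (log2 fold change 0.30 ± 0.07 SE; adjusted p in edgeR = 0.161). Rpl29 stood at 92.9, 76.4, 87.2 and 91.9 CPM in PBS 1 to 4 and 95.9, 119.5, 119.8 and 113 CPM in sIVs 2 to 5, also without overlap (log2 fold change 0.36 ± 0.09 SE; adjusted p in edgeR = 0.173). For Rpl19, which forms a bridge to the small subunit, the values were 162, 148, 159.6 and 152 CPM in PBS 1 to 4 and 169, 191, 203 and 199 CPM in sIVs 2 to 5, again without overlap (log2 fold change 0.30 ± 0.08 SE; adjusted p in edgeR = 0.173). Rpl32, often used as a reference gene, was at 114, 90.2, 108 and 111 CPM in PBS 1 to 4 and 108, 135, 150.0 and 133 CPM in sIVs 2 to 5. Its sIVs 2 value lay inside the PBS range and the other 3 above it. For Rpl36 the values were 101, 76.5, 93.8 and 101 CPM in PBS 1 to 4 and 93.4, 111, 129 and 133 CPM in sIVs 2 to 5, in the same arrangement.

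Rpl5 and Rpl11 bind the smallest ribosomal RNA and, outside the ribosome, the p53 regulator Mdm2. Rpl5 stood at 224, 195, 193 and 194 CPM in PBS 1 to 4 and 219.6, 217, 221 and 225 CPM in sIVs 2 to 5. PBS 1 was as high as the sIVs libraries and the other 3 PBS libraries were lower (log2 fold change 0.13 ± 0.07 SE; adjusted p in edgeR = 0.41). Rpl11 was at 167, 138, 157 and 177 CPM in PBS 1 to 4 and 157, 194, 204 and 195 CPM in sIVs 2 to 5, with 3 of 4 sIVs libraries above PBS. Rpl13a, which can leave the ribosome to silence inflammatory messenger RNAs, was low at 11.8, 12.3, 12.9 and 16.8 CPM in PBS 1 to 4 and 12.9, 12.5, 15.1 and 16.3 CPM in sIVs 2 to 5, with overlapping groups and log2 fold changes from 0.0043 to 0.20 as each library was left out. The lowest fold changes of the large subunit were those of Rpl24 and Rpl30. Rpl30 stood at 102, 63.9, 98.5 and 121 CPM in PBS 1 to 4 and 81.8, 83.8, 89.7 and 96.8 CPM in sIVs 2 to 5, with all sIVs libraries inside the PBS range (log2 fold change -0.13 ± 0.16 SE; adjusted p in edgeR = 0.74). The fold change was -0.28 without PBS 2 and -0.0030 without PBS 4. Rpl24 had only 20 to 42 counts per library (log2 fold change -0.15 ± 0.27 SE, from -0.32 to -0.0006 as each library was left out), and its sign turned to 0.017 without sIVs 3 and 4.

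The remaining tested members kept to the same range. In the small subunit the log2 fold change ran from 0.07 for Rps15a to 0.59 for Rps12. In the large subunit it ran from -0.05 for Rpl7a to 0.55 for Rpl41, with adjusted p (edgeR) of 0.184 or more over both.

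Tissue-restricted paralogs were at or near 0. Rpl10l, a testis paralog of Rpl10, had 0 counts in all 8 libraries. Rpl39l, a testis-enriched paralog of Rpl39, had 0 to 3 counts per library, and Rpl3l, the muscle paralog of Rpl3, had 0 to 7. Their general partners were abundant. Rpl3, next to the peptidyl transferase centre, stood at 392, 352, 367 and 395 CPM in PBS 1 to 4 and 374, 414, 437 and 431 CPM in sIVs 2 to 5, with 3 of 4 sIVs libraries above PBS (log2 fold change 0.14 ± 0.08 SE; adjusted p in edgeR = 0.45). Rpl10, which joins the large subunit late in its assembly, was at 148, 131, 135 and 155 CPM in PBS 1 to 4 and 143, 210.2, 222 and 178 CPM in sIVs 2 to 5 (log2 fold change 0.40 ± 0.13 SE; adjusted p in edgeR = 0.222). Rpl39, at the exit tunnel, was at 78.2, 64.8, 64.8 and 73.0 CPM in PBS 1 to 4 and 70.6, 109, 109.9 and 87.1 CPM in sIVs 2 to 5 (0.42 ± 0.14 SE; adjusted p in edgeR = 0.226). In both, sIVs 3 and 4 were the highest and sIVs 2 was inside the PBS range. Rpl10 and Rpl39 are on chromosome X, as are Rpl36a and Rps4x, and these 4 had log2 fold changes of 0.40, 0.42, 0.49 and 0.36. Their median of 0.41 stood beside 0.22 for the 72 autosomal members and -0.02 for all 583 tested genes of the X chromosome. In sIVs 3 their log2 ratios to the PBS mean were 0.56, 0.63, 0.76 and 0.57, beside 0.22 for all members. In sIVs 4 they were 0.64, 0.65, 0.66 and 0.59, beside 0.34. The other sIVs libraries lacked this gap. The ratios were 0.007, 0.007, 0.18 and 0.05 in sIVs 2, beside 0.03, and 0.32, 0.31, 0.25 and 0.13 in sIVs 5, beside 0.28.

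Near-identical copies limit what single members show. Ribosomal protein genes have many processed pseudogenes, and 0.0536 to 0.0592% of counts in PBS and 0.0606 to 0.0701% in sIVs fell on the 391 rows annotated as such. The share of 100-base runs of a member's main transcript found in no other annotated transcript ran from 1.63% for Rps27 to 100% for 6 tested members, Rpl22, Rpl32, Rps3, Rps21 and Rps27l among them. The log2 fold changes of these 5 were 0.10, 0.32, 0.15, 0.23 and 0.62. Rpl17, which was singled out after its values were seen, had 783, 453, 420.0 and 464 counts in PBS 1 to 4 and 376, 491, 1993 and 496 in sIVs 2 to 5. Its processed pseudogene Rpl17-ps10, which shares a run of 403 bases, had 1263, 1176, 1348 and 1249 and 1413, 1584, 466 and 1707. In sIVs 4 alone the gene was high and the pseudogene low. Rpl17 had a log2 fold change of 0.47 ± 0.45 (SE; adjusted p in edgeR = 0.653), and the ratio of the summed rows' means was 0.10 on the log2 scale. The pairs shown were picked after these values were seen, and the part of read assignment in them was not tested.

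**Figure D5:**
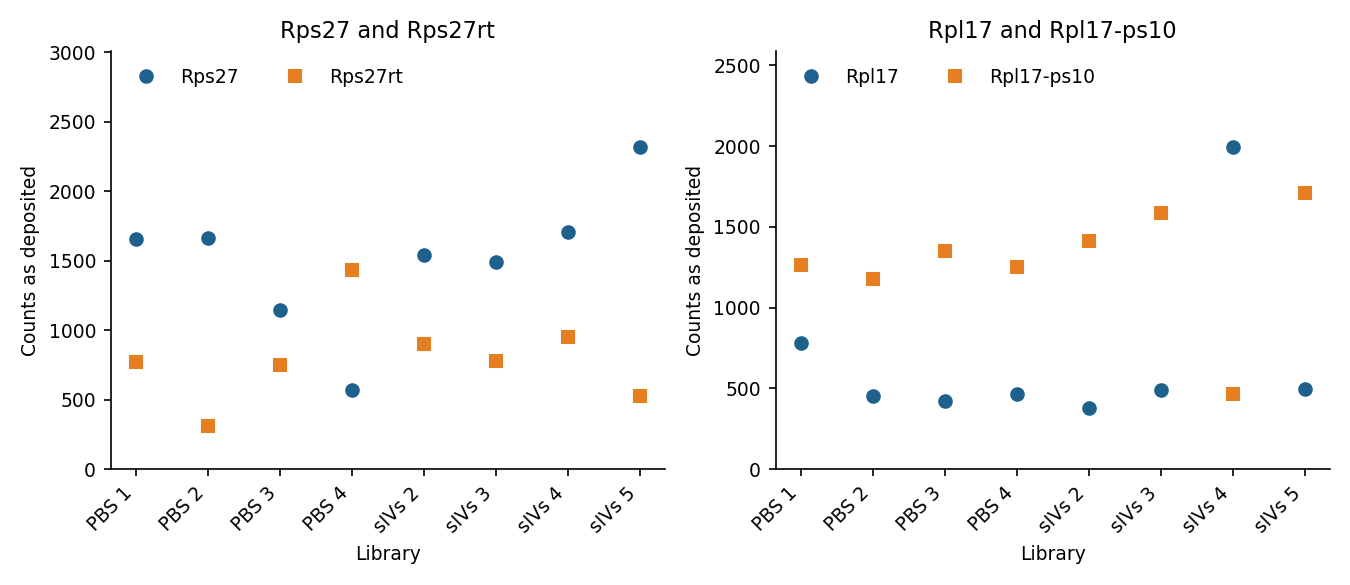
Deposited counts (vertical axes, from 0) by library for Rps27 with its copy Rps27rt and for Rpl17 with its pseudogene Rpl17-ps10. In PBS 4 and in sIVs 4 the gene and its copy change places, at 567 against 1430 counts for Rps27 and 1993 against 466 counts for Rpl17.

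Lists of related genes of translation had medians from 0.01 to 0.23 on the log2 scale, again with 0 genes past the adjusted threshold in each list. Counts in these lists are at an unadjusted p under 0.05, which 9.61% of all genes passed as higher and 5.63% as lower. The list of ribosomal protein genes outside the name rule had 8 tested rows, of which Rps4l is annotated as a transcribed processed pseudogene. Of these 8 rows, 3 were higher at an unadjusted p under 0.05 and 0 lower, with a median log2 fold change of 0.14. Rpsa, a small subunit protein also known as the laminin receptor, stood at 261, 255, 264 and 272 CPM in PBS 1 to 4 and 273, 448, 442 and 346 CPM in sIVs 2 to 5 (log2 fold change 0.52 ± 0.15 SE; adjusted p in edgeR = 0.185). Rack1, a scaffold on the small subunit, was 0.25 ± 0.08 higher on the log2 scale, and for both genes all sIVs libraries exceeded all PBS libraries. Of 10 elongation factor genes, 6 were higher and 0 lower (unadjusted, median 0.23, and 0.10 without sIVs 3 and 4). Eef1b2, an exchange factor subunit for the factor that delivers aminoacyl-tRNA, stood at 79.4, 77.5, 79.2 and 80.5 CPM in PBS 1 to 4 and 86.4, 124, 132 and 102 CPM in sIVs 2 to 5 (log2 fold change 0.49 ± 0.12 SE; adjusted p in edgeR = 0.168). Eef1d, another subunit of that complex, had a log2 fold change of 0.22 ± 0.07.

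Among 30 initiation factor genes, 8 were higher and 0 lower (unadjusted, median 0.14). Eif3a, a scaffold of the factor that binds the small subunit, stood 0.25 ± 0.06 higher on the log2 scale (± SE), and Eif4a1, the helicase of the cap-binding complex, 0.37 ± 0.09 higher (adjusted p in edgeR = 0.167 and 0.167). Ribosome assembly genes numbered 7 higher and 0 lower of 36, with 35 positive fold changes and a median of 0.14 (0.21 without sIVs 3 and 4). Its members of smallest p were Nhp2, a protein of pseudouridylation complexes, at 0.59 ± 0.14, and Fbl, the ribosomal RNA methyltransferase fibrillarin, at 0.31 ± 0.08. In this list the library medians of 0.11, 0.03, 0.09 and 0.31 in sIVs 2 to 5 were highest in sIVs 5, and sIVs 3 was the lowest.

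Genes of RNA polymerase I and its factors numbered 1 higher and 0 lower of 15 at an unadjusted p under 0.05, a share near the 9.61% of all genes (median 0.06, and 0.11 without sIVs 3 and 4). The higher one was Myc, a transcription factor that drives ribosome production, at 2.64, 1.15, 1.11 and 1.14 CPM in PBS 1 to 4 and 3.21, 8.82, 4.86 and 9.61 CPM in sIVs 2 to 5 (log2 fold change 2.12 ± 0.42 SE; adjusted p in edgeR = 0.153). All sIVs libraries exceeded the highest PBS library, PBS 1. Polr2e, a subunit shared by the RNA polymerases, was next by p at 0.11 ± 0.08. Of 13 genes in the control of terminal oligopyrimidine translation, 1 was higher and 0 lower, again near that share (median 0.01, and 0.06 without sIVs 3 and 4). Eif4ebp1, the inhibitor of the cap-binding protein that mTOR inactivates, stood at 1.67, 2.18, 2.50 and 1.78 CPM in PBS 1 to 4 and 2.68, 7.52, 9.34 and 6.62 CPM in sIVs 2 to 5 (log2 fold change 1.69 ± 0.35 SE; adjusted p in edgeR = 0.153). Akt1, a kinase upstream of mTOR, was next by p at 0.18 ± 0.08. Mitochondrial ribosomal protein genes, a separate set, numbered 5 higher and 1 lower of 77, a share below that of all genes, with a median of 0.03, beside -0.0051 for all genes. Mrps6, with a log2 fold change of 0.75 ± 0.16 and Mrpl17, with 0.24 ± 0.08, had the smallest p there. Whether the cytosolic and mitochondrial sets differ was not tested.

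Cell type markers moved with the libraries as well. Their counts are at an unadjusted p under 0.05 in edgeR, which 9.61% of all genes passed as higher and 5.63% as lower. In lists of this length, a count of 1 gene passing is near those shares. The 14 rod markers had a median log2 fold change of -0.68, with 0 higher and 1 lower at an unadjusted p under 0.05, and summed to 35671 to 42674 CPM in PBS and 40498, 9463, 8959.6 and 32548 CPM in sIVs 2 to 5. The 8 reactive glia markers had a median of 1.36, with 7 higher and 0 lower, and summed to 276 to 661 CPM in PBS and 667, 1684, 1838 and 1021 CPM in sIVs 2 to 5. The 11 microglia markers had a median of 0.55, with 0 higher and 1 lower, and summed to 209.6 to 337 CPM in PBS and 265, 518, 635 and 207 CPM in sIVs 2 to 5. Library sIVs 5, with a high ribosomal protein median, was below every PBS library in the rod sum and just below in the microglia sum, and above every PBS library in the reactive glia sum. It was also below PBS in the sums of cone markers (858 against 1264 to 1878 CPM), Müller glia markers (3528 against 5039.9 to 6536 CPM) and pigment epithelium markers (24.0 against 54.6 to 184 CPM). The same held for bipolar (1540 against 1579.5 to 1817.5 CPM), amacrine (819 against 865 to 996 CPM) and horizontal cell markers (95.3 against 111 to 126 CPM). Ganglion cell (727 against 820 to 1039 CPM) and endothelium markers (253 against 287 to 329 CPM) were also lower. Its red cell and lens sums lay inside the PBS range, and that of T cell, B cell and granulocyte markers above it. With sIVs 3 and 4 left out, the medians were -0.10 for rods, 0.80 for reactive glia, -0.32 for microglia, -0.43 for cones, -0.48 for Müller glia and 0.17 for the ribosomal protein genes. Cone markers had a median of -0.67, with 6 of 9 lower, and Müller glia markers one of 0.15, with 1 of 9 higher and 1 lower, so that the signs for Müller glia and microglia turned without sIVs 3 and 4. Of 7 markers of T cells, B cells and granulocytes, 1 was expressed well enough to be tested, and their sums stayed at or below 4.24 CPM. Medians of the other lists were -0.01 for bipolar, -0.07 for amacrine, -0.16 for horizontal and -0.19 for ganglion cells, 0.19 for endothelium, -0.46 for pigment epithelium and -0.44 for red cells. The part of cell composition in the ribosomal protein values was not tested.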

How the data were processed

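Retinal messenger RNA of 8 libraries was selected by poly(A) and sequenced as strand-marked paired ends, per the labels' protocols. The authors deposited whole-number counts per gene and FPKM values for 54532 genes; the mm10 build is from the submitters' processing notes, and aligner, counter, annotation and strand setting are not given in the sources used here. Within each library the authors' FPKM equalled the count over gene length and library total times 1 constant (0.930 to 1.03). Every pair of libraries differed beyond sampling noise (lowest chi-square per gene 3.68, PBS 1 and sIVs 2). That pair, across groups, was closer than PBS 1 and PBS 2 (3.88). Libraries sIVs 3 and 4 differed by 4.74 from each other and by 55.8 to 77.4 from the rest.

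The count test was edgeR 4.0.16 under R 4.3.3 (filterByExpr, 17725 genes, TMM scaling, quasi-likelihood test, Benjamini-Hochberg adjustment over all genes tested, threshold 0.05), after a check on simulated data. Standard errors came from the F statistic. Alternatives were DESeq2 1.42.0, limma 3.58.1 (voom, and log2 of FPKM plus 0.1 or 1), other scalings and filters, left-out libraries and replicate blocks. Deviations from the group mean had r from -0.0605 to 0.0545 between libraries of the same title number. For the same biosample number r ran from -0.0749 to 0.0977, and for other pairs across groups from -0.129 to 0.0782. With 4 libraries per group, of which sIVs 3 and 4 stood apart, these values can neither show nor exclude pairing. The numbers were not taken as pairs in the main test.

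Named members were the 4 of smallest p, the 2 of lowest fold change and the 2 of highest FPKM in each subunit, a set fixed by role, and up to 2 genes per pathway list; 1 small subunit member that the rule names is not reported here. Members, lists and tests were chosen with earlier results of these data known. Copies came from GENCODE M21 transcripts and start windows from RefSeq.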

Additional observations from a re-analysis of the deposited data

Results flagged for a closer look

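Among 68 groups of 4 libraries looked at, 3 had 1 library far from the other 3 by a gap test that flags about 1 group in 20 by chance. That count is near this rate. Rpl5 in PBS 1 stood at 224 CPM, above the other 3 PBS libraries. Rps14 in PBS 2 stood at 208 CPM, below the others. Rpl17 in sIVs 4 stood at 110.1 CPM against 25.2, 30.5 and 29.6 CPM in sIVs 2, 3 and 5, and was looked at after its values were seen.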

How the results depend on the processing

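The median log2 fold changes of the small subunit, the large subunit and all members stayed positive and within 1 SD of the sIVs library medians under all 20 alternatives (0.17 to 0.29 over all members as each library was left out). Members higher after adjustment numbered 0 with all 8 libraries in edgeR and limma, 10 with DESeq2 and 0 to 25 as each library was left out, the 25 without sIVs 2. Members higher at an unadjusted p under 0.05 numbered 38 (9.61% of all genes), from 20 to 49 as each library was left out, and 23 without sIVs 3 and 4. Members lower numbered 0 to 1, the 1 without PBS 2, beside 5.63% of all genes with all 8 libraries. Groups did not overlap, with sIVs above, for 12 members (4.42% of all genes) and for 12 to 45 as each library was left out. For the 45 the share of all genes was 11.3%. With sIVs below, the count was 0 to 1, the 1 again without PBS 2, beside 3.36% of all genes with all 8 libraries. Of 540 values of the 27 named tested members, 511 kept their direction and side of the threshold, 23 passed it (14 without sIVs 2 and 9 with DESeq2) and 6 turned sign: Rps14 to -0.0025 and Rps15 to -0.042 without PBS 2, Rps14 to -0.00041 and Rps15 to -0.016 without sIVs 5, Rpl24 to 0.017 without sIVs 3 and 4, and Rpl13a to -0.046 with a replicate block on the title numbers. As each library was left out, Rps14 ran up to 0.072 and Rps15 up to 0.061. That block, on the 6 libraries numbered 2 to 4, gave 43 members higher at an unadjusted p under 0.05 (7.43% of all genes), a block on the biosample numbers gave 27 (8.19%), and both gave 0 after adjustment. Adding pseudogene rows gave summed sIVs to PBS ratios of 1.23 for the small and 1.25 for the large subunit. The causes of these moves were not tested. Rpl24, Rps10 and Rpl13a had the lowest mean counts of the tested members, and a difference there is measured on few reads.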
